A study of Mus musculus with 2 samples.

Results

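The genes described here encode the DNA replication machinery, 43 of the 42462 annotated mouse genes measured in embryonic heart. They were chosen by name: the helicase and its loaders and activators, the replicative polymerases, the clamp and its loader, the single-strand binding protein, the enzymes that join Okazaki fragments, the enzymes that supply deoxynucleotides, and topoisomerase II alpha. Each name was matched to the tables through its gene identifier, and all 43 were found. The heart RNA came from mice of the B6NCrl strain at embryonic day 16.5, with hearts of male and female embryos pooled. Total RNA was sequenced from 2 such pools, 1 library each; the labels number them as biological replicates and give no second condition, genotype or treatment. The pool of replicate 2 was made from 41 embryos, and the size of the pool of replicate 1 is not stated. Both libraries carry 1 donor identifier, so the spread between them may be partly technical. The smallest p an exact two-sided permutation of signs allows here is 0.5, so no p-value is given.

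DNA replication starts at origins bound by the origin recognition complex (ORC), which with Cdc6 and Cdt1 loads the MCM helicase onto DNA in G1. Geminin blocks Cdt1 after S phase begins, so that each origin is licensed for a single round. In S phase Cdc45 and the GINS complex join the helicase to form the active CMG complex, polymerase alpha-primase lays down primers, and polymerases epsilon and delta, held on DNA by the clamp PCNA, copy the strands. Heart muscle cells of the mouse divide throughout fetal life and largely leave the cell cycle after birth, and the transcripts of many of these proteins are periodic, controlled by E2F factors. The labelled tissue was checked against 10 heart muscle genes, all of which were above 1 TPM (a relative abundance corrected for transcript length and scaled to the same total in every library) in each library; their median was 3073 TPM.

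The promoters of these genes carried matches to the E2F-type motif at a higher share than those of expressed genes at large; no test was made of this difference. RefSeq promoters on GRCm38.p6, which run from 250 bases before to 50 after the transcription start, were at hand for 35 of the 43 genes (42 promoters). The motif was searched on both strands as TTTCCCGC, TTTCGCGC, TTTGCCGC and TTTGGCGC. Of the 35 genes, 13 had a match (37.1%), against 4.71% of 10159 expressed protein-coding genes and 2.61% of all 27025 genes in the promoter table. Base composition was close, with a median of 58.8% G and C and 21 CpG for the promoters of the replication genes, against 60.7% and 20 for those of expressed protein-coding genes. The matches are shown here, each nearest to its start, because they are the feature these 13 promoters have in common; capitals mark the E2F-type match, overlapping matches are joined, and every sequence is given in the direction of the gene.
Mcm3 (chr1:20820277-20820302, minus strand): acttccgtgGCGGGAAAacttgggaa
Mcm5 (chr8:75109347-75109376, plus strand): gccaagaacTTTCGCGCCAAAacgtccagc
Mcm6 (chr1:128359736-128359761, minus strand): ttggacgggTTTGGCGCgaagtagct
Mcm7 (chr5:138171851-138171876, minus strand): gtgacgacgTTTCGCGCcaatttcgg
Orc1 (chr4:108579418-108579443, plus strand): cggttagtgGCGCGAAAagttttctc
Orc3 (chr4:34614967-34614992, minus strand): atgcctcccTTTCCCGCacgccccgc
Cdc6 (chr11:98908004-98908029, plus strand): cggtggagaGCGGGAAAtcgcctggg
Cdt1 (chr8:122568038-122568063, plus strand): aactaccttTTTGGCGCcatggcgca
Gins3 (chr8:95633509-95633534, plus strand): gagtgcggcGCGGGAAAgcgagtttg
Pola1 (chrX:93632277-93632302, minus strand): catcacaggGCGCCAAAtgcactccc
Pold1 (chr7:44548766-44548785, minus strand): tatcttgtgGCGGGAAAagc
Rfc3 (chr5:151651192-151651217, minus strand): ttcgcgctcGCGGGAAAactctactg
Lig1 (chr7:13278843-13278868, plus strand): ccaaagtgcGCGCGAAAtctgtgtgg

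Of the 6 helicase subunit genes, 5 had a promoter in the table and 4 of these held a match, Mcm2 being the exception. In Mcm5 and Mcm6 a TTTCGCGC and a TTTGGCGC on opposite strands overlapped, which gives a near-palindrome; it began 153 bases before the start in Mcm5 and 110 before it in Mcm6. Mcm6 held a further match 47 bases before the start. Genes with 2 or more matches in a promoter numbered 5, namely Mcm3, Mcm5, Mcm6, Mcm7 and Rfc3. For 10 of the 13 genes a match lay within 100 bases before to 50 after the start. No match in these letters was found in the promoters of Rrm2, Pcna, Top2a, Rrm1 and 18 other genes, which says only that the 4 words are not in these windows. Genes with a match had a median level of 44.5 TPM and a range of 3.85 to 129, and those without had a median of 61.2 TPM and a range of 13.5 to 202, so the ranges overlapped.

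CCAAT, the core of the NF-Y site, was found on either strand in the promoters of 23 of the 35 genes (65.7%), against 42.9% of expressed protein-coding genes. GGGCGG, a GC box, was found in 26 (74.3%, against 68.7%). TATAAA was found in 2 (5.71%, against 9.14%), and TTTGAA, the core of the cell cycle homology element, in 5 (14.3%, against 14.2%). From 150 bases before the start to 50 after it, the E2F-type count stayed at 13 (37.1%, against 3.46% of expressed protein-coding genes). In that window CCAAT was in 20 (57.1%, against 34.8%) and TATAAA in 0 (against 5.55%). GGGCGG was in 24 there (68.6%, against 64.3%), and TTTGAA stayed at 5 (14.3%, against 8.19%). Top2a, whose transcript peaks later in the cycle than those of the helicase, had no E2F-type match but 6 CCAAT and 2 TTTGAA. Cdc45 also had no E2F-type match and 2 TTTGAA, and the helicase gene Mcm2 had no E2F-type match and 1 TTTGAA. Fen1 likewise had 1 TTTGAA and no E2F-type match, while Gins3 had 1 of each. A link between these motifs and the time of expression was not tested. The promoters of Mcm6, with 3 E2F-type matches, and of Top2a are shown whole as contrasting examples, with E2F-type and TTTGAA matches in capitals.
Mcm6 promoter (chr1:128359656-128359955, minus strand): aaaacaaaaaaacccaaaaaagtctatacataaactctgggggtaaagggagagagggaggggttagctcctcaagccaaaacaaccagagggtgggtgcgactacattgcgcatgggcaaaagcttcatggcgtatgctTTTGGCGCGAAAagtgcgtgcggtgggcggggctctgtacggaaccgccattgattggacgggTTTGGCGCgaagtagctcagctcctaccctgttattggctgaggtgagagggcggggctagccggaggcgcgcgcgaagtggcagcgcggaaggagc
Top2a promoter (chr11:99024140-99024439, minus strand): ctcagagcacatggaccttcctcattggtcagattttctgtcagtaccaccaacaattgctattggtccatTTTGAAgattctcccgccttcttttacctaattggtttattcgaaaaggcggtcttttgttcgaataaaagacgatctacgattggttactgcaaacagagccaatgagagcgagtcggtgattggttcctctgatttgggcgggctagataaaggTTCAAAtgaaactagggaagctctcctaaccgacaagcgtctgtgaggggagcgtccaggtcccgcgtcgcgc

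**Figure D1:**
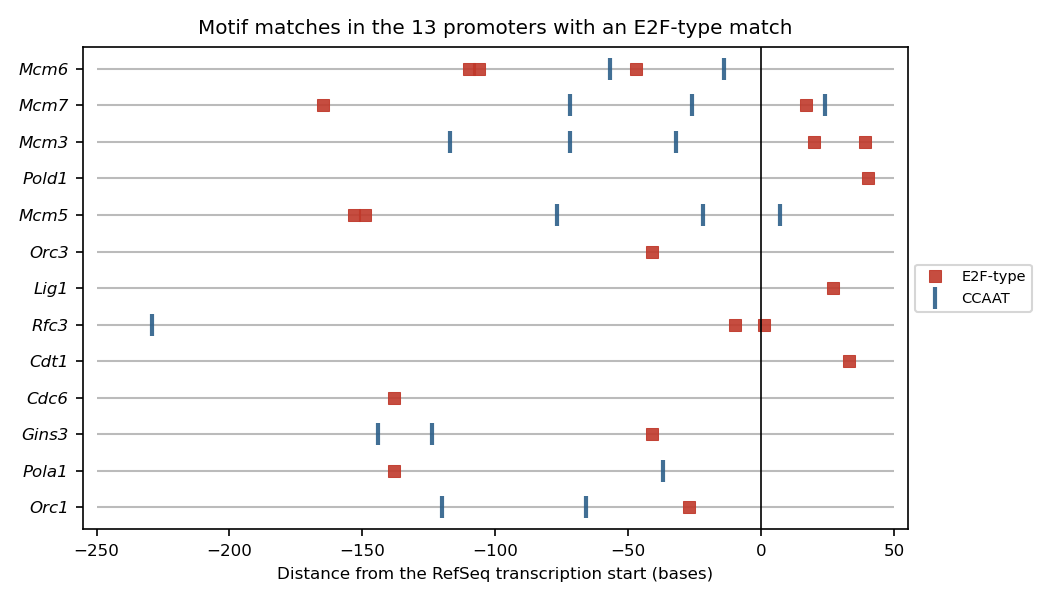
Positions of E2F-type matches (red squares) and CCAAT (blue bars) along the 13 promoters of replication genes that hold an E2F-type match. The x axis is the distance in bases from the RefSeq transcription start, and genes are ordered from the highest level (Mcm6) to the lowest (Orc1); the squares lie between 165 bases before and 40 after the start.

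Every replication gene was expressed. All 43 had at least 1 TPM in both libraries, against 59.1% of 21474 protein-coding genes. Of the 43, 40 reached 10 TPM in both, a count given without a background share. Their median level was 53.4 TPM, against 15.3 TPM for the 12987 protein-coding genes averaging 1 TPM or more, and 38 of the 43 lay above that value. Together they held 0.249% ± 0.00929 of all TPM (SD, n = 2), with 2556 TPM in replicate 2 and 2425 in replicate 1. Levels spanned 52.6-fold, from Rrm2 at 202 TPM ± 12.5 (SD, n = 2) to Orc1 at 3.85 ± 0.686. Estimated counts behind single values ran from 254 to 13380, of 40360242 in replicate 2 and 37160624 in replicate 1. In bulk tissue, more dividing cells and more RNA per dividing cell cannot be told apart.

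The helicase, the nucleotide enzymes and the clamp with its loader held most of this signal. The 6 MCM genes summed to 480.4 TPM ± 11.3, the 4 enzymes of nucleotide supply to 472 ± 16.4, and Pcna with the Rfc genes to 447 ± 35.6 (SD, n = 2). They were followed by the 3 subunits of replication protein A (RPA) at 211 ± 8.66, ORC at 192 ± 2.57, the helicase activators at 163 ± 1.23, Top2a at 139 ± 4.43, and Cdc6, Cdt1 and geminin at 132 ± 4.06. Polymerase alpha-primase (95.6 ± 4.97), Fen1 with Lig1 (87.8 ± 2.40) and the catalytic subunits Pold1 and Pole (71.8 ± 3.74) held the least. Within these groups genes were ordered by mean level. Neighbours were told apart where both libraries gave the same order and the mean log2 difference exceeded 0.19 (1.14-fold), which is 2 times the pooled SD of the 43 genes; this held for 24 of 32 neighbouring pairs. This is a description of the order, not a test.

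**Figure D2:**
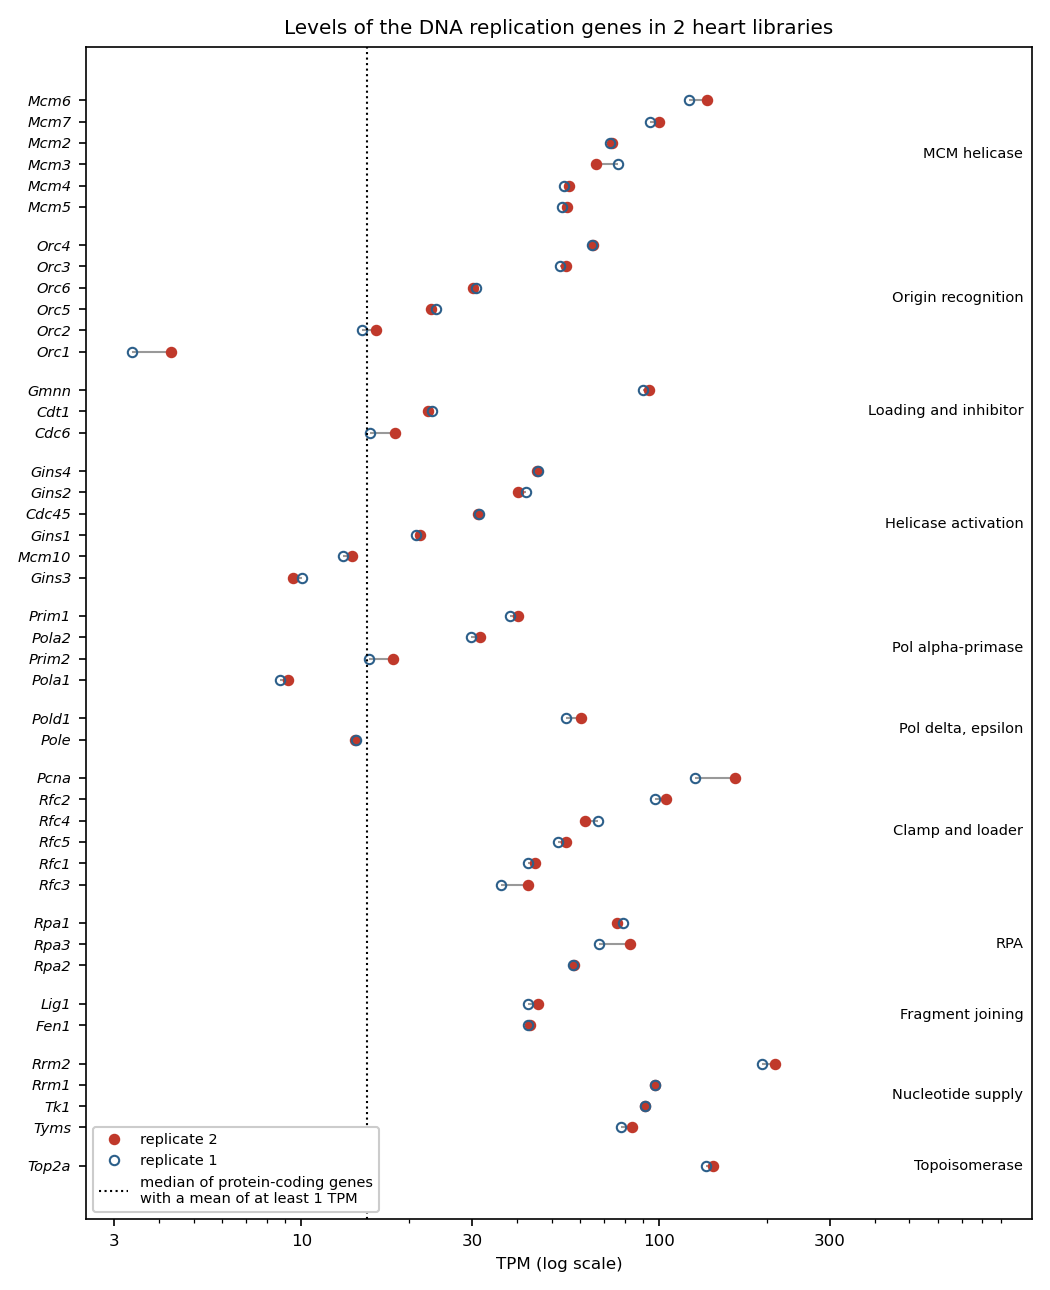
Level of each of the 43 replication genes in TPM (x axis, log scale) in replicate 2 (filled red) and replicate 1 (open blue), grouped by role and ordered by mean within a role; the dotted line is the median of protein-coding genes averaging 1 TPM or more (15.3 TPM). The libraries lie close together for most genes, with wider gaps for Pcna, Rpa3 and Orc1.

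The helicase subunits differed in level although they assemble in equal numbers. Mcm6 (ENSMUSG00000026355.7; mm10 chromosome 1, 128331590 to 128359664, minus strand) was highest, at 136 TPM in replicate 2 and 121 in replicate 1. Mcm7 stood at 99.98 and 94.1 TPM in the same libraries, and Mcm2, whose tail also binds histones, at 73.97 and 72.95. Mcm6, Mcm7 and Mcm2 were told apart in that order, by 1.32-fold at each step. Mcm3 had 66.7 TPM in replicate 2 and 76.7 in replicate 1, so its place relative to Mcm2 changed between libraries. Mcm4 (56.1 and 54.1 TPM) and Mcm5 (55.3 and 53.5) were lowest in TPM and not told apart from each other. Mcm6 exceeded Mcm5 by 2.37-fold. With counts divided by the length of the coding transcript in place of the averaged length, the range of the helicase genes was about as wide, at 2.39-fold. On that scale Mcm3 (41.0) lay close to Mcm4 (40.0) and Mcm5 (39.5), and Mcm7 (58.3) was nearer to Mcm2 (53.3). Retained-intron transcripts held 26.2% of the TPM of Mcm3. On coding transcripts alone Mcm3 had a mean of 52.7 TPM, against 55.1 for Mcm4 and 54.4 for Mcm5.

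Other genes of the MCM family stood far lower. Mcm3 exceeded Mcm8, which with Mcm9 acts in recombination and repair, by 9.31-fold, with Mcm8 at 7.60 TPM ± 0.424. It exceeded Mcm9 (3.92 ± 0.361) by 17.9-fold. Mcmdc2, which works in meiosis, had 0.86 TPM in replicate 2 and 0.87 in replicate 1. Mcm10, a separate protein that activates the loaded helicase, had 13.9 and 13.1 TPM, 5.42-fold under Mcm2.

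ORC genes covered the widest range of any group. Orc4 had 65.4 TPM in replicate 2 and 64.7 in replicate 1, and Orc3 had 54.9 and 52.9. Orc6, the subunit least tightly held in the complex, followed at 30.2 and 30.8 TPM. Orc5 (23.0 and 23.8) and Orc2 (16.2 and 14.8) came next, and each step of this order in TPM was told apart. Orc1 (ENSMUSG00000028587.14; mm10 chromosome 4, 108579423 to 108614833, plus strand), the ATPase subunit whose level varies through the cell cycle, was the lowest of all 43 genes. It had 4.33 TPM in replicate 2 and 3.36 in replicate 1, from 361 and 254 estimated counts. Orc6 exceeded it by 7.82-fold, and Orc2 by 3.98-fold. The range from Orc4 to Orc1 was 16.9-fold. By counts over the length of the coding transcript Orc3 was highest and the range to Orc1 was 12.5-fold. On that scale Orc4 (15.4) lay below Orc3 (33.7), Orc6 (21.3) and Orc5 (16.2). On coding transcripts alone Orc4 had a mean of 20.6 TPM, against 39.8 for Orc3, 30.5 for Orc6 and 20.0 for Orc5.

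Geminin, Gmnn, exceeded the loading factor it inhibits. It had 93.8 TPM in replicate 2 and 90.2 in replicate 1, against 22.5 and 23.2 TPM for Cdt1, a ratio of 4.01-fold (log2 ratio of Cdt1 over Gmnn -2.00 ± 0.07, SD, n = 2). Cdc6, the ATPase that recruits Cdt1 and the helicase to ORC, had 18.3 and 15.5 TPM. Cdt1 exceeded Cdc6 by 1.36-fold in TPM, while without length correction the log2 ratio of Cdc6 over Cdt1 was 0.0018. These values are transcript levels; Cdt1, geminin and Cdc6 are also controlled by protein degradation, which was not measured.

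The helicase activators were unequal too. Of the GINS subunits, Gins4 had 45.7 TPM in replicate 2 and 45.9 in replicate 1, and Gins2 had 40.3 and 42.4, which were not told apart. Gins1 stood at 21.5 and 20.9 TPM, and Gins3 was lowest at 9.49 and 10.02. The complex holds these proteins in equal number, and the range of their transcripts was 4.69-fold. Cdc45 had 31.1 TPM in replicate 2 and 31.4 in replicate 1, 1.74-fold under Mcm5. Most of the Gins2 value rests on a short transcript with a retained intron, as described with the transcripts.

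In polymerase alpha-primase the other subunits, those of primase included, stood above the catalytic subunit of the polymerase. The primase subunit Prim1 had 40.3 TPM in replicate 2 and 38.2 in replicate 1. The accessory subunit Pola2 had 31.6 and 29.7, and the large primase subunit Prim2 had 18.0 and 15.4. Pola1, the catalytic subunit of the polymerase and the only member on the X chromosome (93304767 to 93632155, minus strand), was lowest at 9.18 and 8.73 TPM. Pola2 exceeded Pola1 by 3.40-fold and Prim1 exceeded Prim2 by 2.35-fold. Pold1, the catalytic subunit of the lagging strand polymerase, had 60.3 and 54.9 TPM. It exceeded Pole, its leading strand counterpart (14.1 and 14.2 TPM), by 4.04-fold in TPM and by 5.68-fold in counts over the length of the coding transcript. The 6 accessory subunits of these polymerases had a median of 38.0 TPM and a range of 7.78-fold. Pold2 was highest at 93.3 TPM ± 1.91, followed by Pole4 at 69.8 ± 2.74 and Pole3 at 40.4 ± 0.651, and Pole2 was lowest at 12.0 ± 0.346 (SD, n = 2).

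Pcna (ENSMUSG00000027342.10; mm10 chromosome 2, 132249162 to 132253314, minus strand), the sliding clamp, was the second highest of the 43 genes. It had 163 TPM in replicate 2 and 126 in replicate 1, the largest log2 ratio between the libraries among these genes. The authors' credibility intervals, whose level is not stated, ran from 156 to 164 and from 119.9 to 128 TPM and did not overlap. Of the clamp loader, Rfc2 had 104 and 97.1 TPM, Rfc4 had 62.1 and 67.6, and Rfc5 had 54.8 and 52.0. Rfc1, the large subunit that opens the clamp, had 45.1 and 43.1 TPM, and Rfc3 had 43.1 and 36.2. Rfc1 and Rfc3 were not told apart, and the other steps were. By counts over the length of the coding transcript Rfc1 was lowest of the group, and the range from Pcna to it was 6.84-fold in place of 3.65-fold from Pcna to Rfc3 in TPM.

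The 3 subunits of RPA, the trimer that coats single-stranded DNA, were the most even of the complexes, with a range of 1.35-fold. Rpa1 had 76.1 TPM in replicate 2 and 79.2 in replicate 1, Rpa3 had 82.7 and 68.0, and Rpa2 had 57.8 and 57.3. Rpa1 and Rpa3 changed places between the libraries. Fen1, the nuclease that trims Okazaki fragments, had 43.6 and 43.0 TPM, and Lig1, the ligase that seals them, had 45.9 and 43.0. They were not told apart in TPM, while counts over the length of the coding transcript put Fen1 above Lig1 (log2 ratio 0.75). Lig1 exceeded Lig3, the ligase of mitochondria and break repair (13.9 TPM ± 1.01), by 3.19-fold in TPM, but by a log2 ratio of 0.13 in counts without length correction.

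Nucleotide supply was led by Rrm2 (ENSMUSG00000020649.7; mm10 chromosome 12, 24708241 to 24714146, plus strand), the S phase subunit of ribonucleotide reductase. It was the highest of all 43 genes, at 211 TPM in replicate 2 and 193 in replicate 1. Rrm2 exceeded its constant large partner Rrm1 (97.1 and 97.5 TPM) by 2.08-fold. The TPM ratio to Rrm1 rests on length correction, since the log2 ratio of Rrm1 over Rrm2 was -0.11 in uncorrected counts. Rrm2 exceeded Rrm2b, the subunit that serves resting cells (9.94 TPM ± 0.0990), by 20.1-fold. Tk1, the cytosolic S phase thymidine kinase, had 91.3 and 91.0 TPM and exceeded the mitochondrial kinase gene Tk2 (8.46 ± 0.955) by 10.7-fold. Tyms, thymidylate synthase, had 83.7 and 78.2 TPM and was not told apart from Tk1 in TPM; over the length of the coding transcript Tyms lay below Tk1, at a log2 ratio of -1.08. Top2a, which untangles replicated chromosomes and is made in dividing cells, had 142 and 135 TPM (ENSMUSG00000020914.13; mm10 chromosome 11, 98992943 to 99024189, minus strand). It exceeded its widely expressed paralog Top2b (28.6 ± 2.45) by 4.84-fold. In all, 18 of the 20 gene pairs that were compared differed by this rule, the exceptions being Tyms with Tk1 and Fen1 with Lig1.

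A part of these levels lay on transcripts that are not annotated as coding. For every transcript the authors' tables state its percent of the TPM of the gene, and transcript classes were taken from GENCODE M21. Protein-coding transcripts held a median of 93.9% of the TPM of the 43 genes, against 98.3% over expressed protein-coding genes. They held 90% or more for 25 of the 43, against 66.7% of expressed protein-coding genes. For 39 genes the leading transcript was protein-coding, and 8 genes had a single transcript in the tables. No share over expressed protein-coding genes is given for these counts, so they are description only. Coding transcripts held under 75% for 12 of the 43 (background 19.9%), and transcripts with a retained intron held 10% or more for 13 (background 18.3%). No test was made of these differences.

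Tyms had the lowest share on coding transcripts. Rfc1 came next, with leading transcripts of unknown class, and Gins2 followed. In Tyms coding transcripts held 7.93% of the TPM in replicate 2 and 8.54% in replicate 1, and the leading transcript was one annotated for nonsense-mediated decay, with 38.6% and 43.4%. Retained-intron transcripts held 49.8% and 44.9%. The level on coding transcripts of Tyms was 6.64 TPM in replicate 2 and 6.68 in replicate 1. In Gins2 a 511-base retained-intron transcript held 73.5% in replicate 2 and 73.3% in replicate 1, which left 8.54 and 10.3 TPM on the coding transcript of 3900 bases. The class of the leading Tyms transcript comes from an M21 model of 618 bases, while its deposited length was 797.

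Several other genes were divided between long and short transcripts. For Orc4, coding transcripts held 31.1% in replicate 2 and 32.3% in replicate 1, and the leading transcript, of 1477 bases, is of the class processed transcript. For Top2a the coding transcript of 5221 bases held 56.0% and 58.4%, and processed transcripts of 632 and 796 bases held most of the rest. Retained-intron transcripts held 38.5% and 42.9% of Tk1, 35.0% and 45.0% of Mcm10, and 35.2% and 37.4% of Pold1. For Rfc1 a coding share of 11.9% in replicate 2 and 12.3% in replicate 1 is a lower limit, since the leading transcripts had no match in M21. Pole was split between a transcript of 747 bases (35.0% and 28.0%) and the full-length one of 7163 bases (29.0% and 31.4%). Over coding transcripts alone, an alternative chosen after seeing the data, the median level of the 43 genes was 36.2 TPM.

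**Figure D3:**
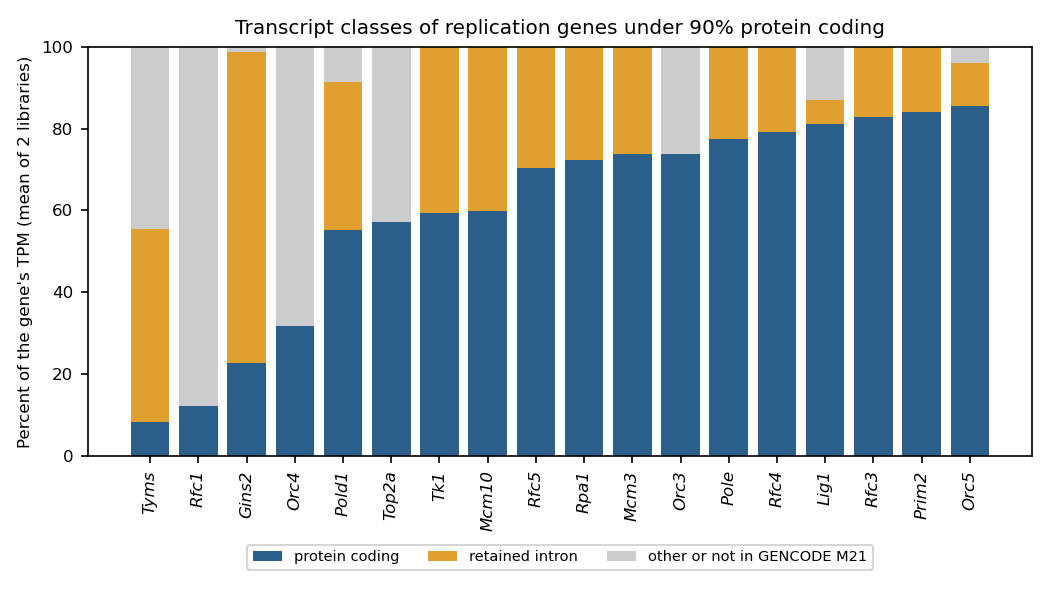
Percent of each gene's TPM (mean of 2 libraries, y axis) on protein-coding transcripts (blue), transcripts with a retained intron (orange) and others, including those not matched to GENCODE M21 (grey), for the 18 replication genes under 90% protein coding. Tyms, Rfc1, Gins2 and Orc4 are lowest, from 8.24% to 31.7% coding.

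Such short transcripts shorten the length that TPM divides by. The mean quantified length was under 75% of the coding transcript for 8 of the 43 genes. This share is close to the 17.2% of expressed protein-coding genes, so it is not particular to the replication genes. The 8 were Gins2, Orc4, Pold1, Pole, Rfc1, Lig1, Tyms and Top2a. Gins2 was quantified at 1365 bases against 3900, and Orc4 at 1391 against 4066. Counts per kilobase of coding transcript, scaled to library depth, ranked the 43 genes much as TPM did, with Spearman's rho of 0.92 across genes, which share libraries and are not independent. On that scale Gins4 had 31.7 depth-scaled counts per kilobase, Gins2 had 10.0 and Gins3 had 6.98, so that Gins2 lay nearer to Gins3 than to Gins4. Pole at 4.64 then lay next above Orc1, the lowest at 2.70.

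**Figure D4:**
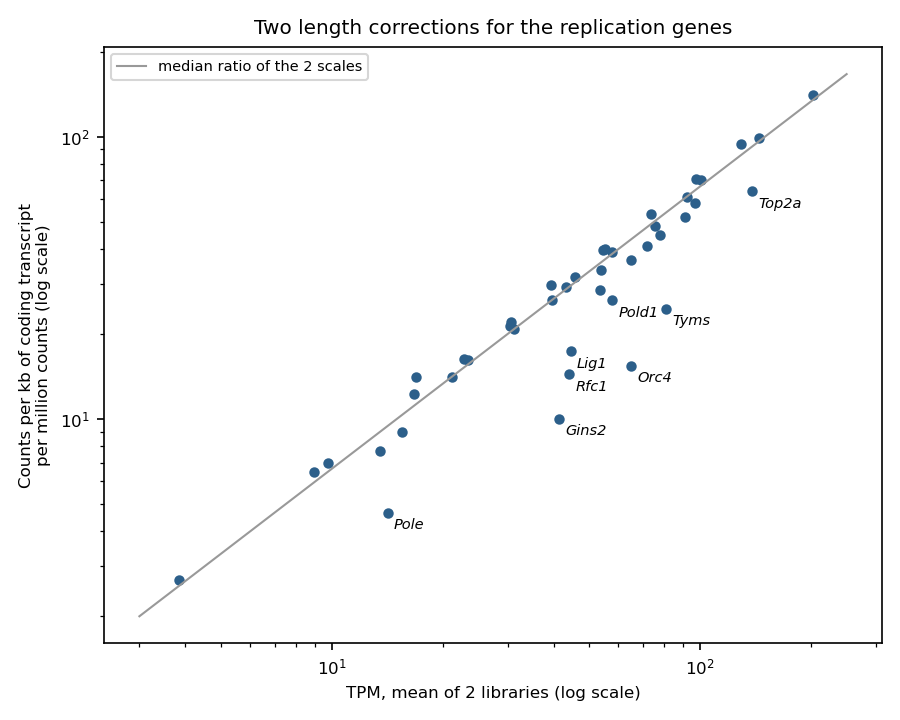
Mean TPM (x axis) against mean depth-scaled counts per kilobase of coding transcript (y axis) for the 43 replication genes, both on log scales; the line is the median ratio of the 2 scales. The 8 named genes, quantified at under 75% of the coding transcript length, lie below the line.

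The replication genes differed little between the pools. Log2 ratios of replicate 2 over replicate 1, from depth-scaled counts (CPM with the TMM factor of edgeR), had a median of 0.09 (1.06-fold), against -0.03 over the 12987 expressed protein-coding genes. No replication gene was over 1.5-fold apart, against 12.3% of all 14830 genes averaging 1 TPM or more (8.63% higher and 3.66% lower in replicate 2) and 7.08% of the protein-coding ones. Higher in replicate 2, by any amount, were 36 of the 43 genes, against 46.7% of all such genes and 43.8% of the protein-coding ones. Scaling by the spike-ins turned the direction: the median was then -0.99, against -1.09 for all such genes. This lean is small: the median absolute log2 ratio was 0.09 for the members and 0.13 for expressed protein-coding genes. The genes used for comparison were not matched for level, with medians of 53.4 TPM for the members and 15.3 TPM for expressed protein-coding genes. The mitosis list (20 genes) and the G1/S regulators (17 genes) also had 0 genes over 1.5-fold apart. The 43 genes ranked alike, with Spearman's rho of 0.996 across genes between the libraries, which is a description.

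Pcna led the lean, at a log2 ratio of 0.42 (1.34-fold), followed by Orc1 at 0.39 and Rpa3 at 0.31. Mcm10 (0.28) and Rfc3 (0.28) completed the 5 genes over 1.2-fold apart, against 23.6% of expressed protein-coding genes. Lower in replicate 2 were Gins2 (-0.15), Pole (-0.06), Mcm3 (-0.06), Gins3 (-0.05), Orc5 (-0.01), Cdt1 (-0.01) and Orc6 (0.00). The credibility intervals overlapped between libraries for 34 genes and did not for Mcm3, Mcm6, Cdc6, Pcna, Prim2, Rfc2, Rfc3, Rpa3 and Rrm2; they did not overlap for 30% of expressed protein-coding genes. These intervals cover counting and read assignment only. The role medians lay between 0.03 for the helicase activators and the pair Pold1 and Pole, and 0.12 for polymerase alpha-primase.

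Markers of other tissues moved between the pools far more than the replication genes. Thymocyte markers had a median log2 ratio of 1.41, with 13 of 13 expressed markers higher in replicate 2, and a summed level of 400.3 TPM in replicate 2 and 157 in replicate 1. Lck (95.9 and 38.4 TPM) and Cd3g (78.5 and 31.0) led that list, and 12 of its 15 genes reached 1 TPM in both. Cd4 (1.70 and 0.21) and Dntt (0.22 and 0.02) had the lowest means, and Cd4 passed 1 TPM in replicate 2 only. Thymic epithelium markers had a median of 0.97, with 5 of 6 higher in replicate 2. Their sums were 501 TPM in replicate 2 and 325 in replicate 1. Fast skeletal muscle markers had a median of 1.01, with 9 of 10 expressed markers higher in replicate 2. Their sums were 301 TPM in replicate 2 and 210.1 in replicate 1. Lung epithelium markers were lower in replicate 2, with a median of -2.87 and sums of 124 TPM in replicate 2 and 999 in replicate 1. Thymocytes and fetal lung cells divide as well. The part of these tissues in the levels of the replication genes, and in their lean to replicate 2, was not tested. Heart muscle markers had a median of 0.02 and sums of 38336 and 41605 TPM, erythroid markers had a median of -0.05, and macrophage markers 0.07. Fibroblast markers had a median of -0.33, with 4 of 6 lower in replicate 2 and sums of 1966 and 2263 TPM. Endothelium markers had a median of -0.08 and liver markers of -0.10. The liver list summed to 31.6 TPM in replicate 2 and 21.9 in replicate 1. Of its 4 expressed markers 2 were higher in replicate 2, and 1 was over 1.5-fold higher.

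**Figure D5:**
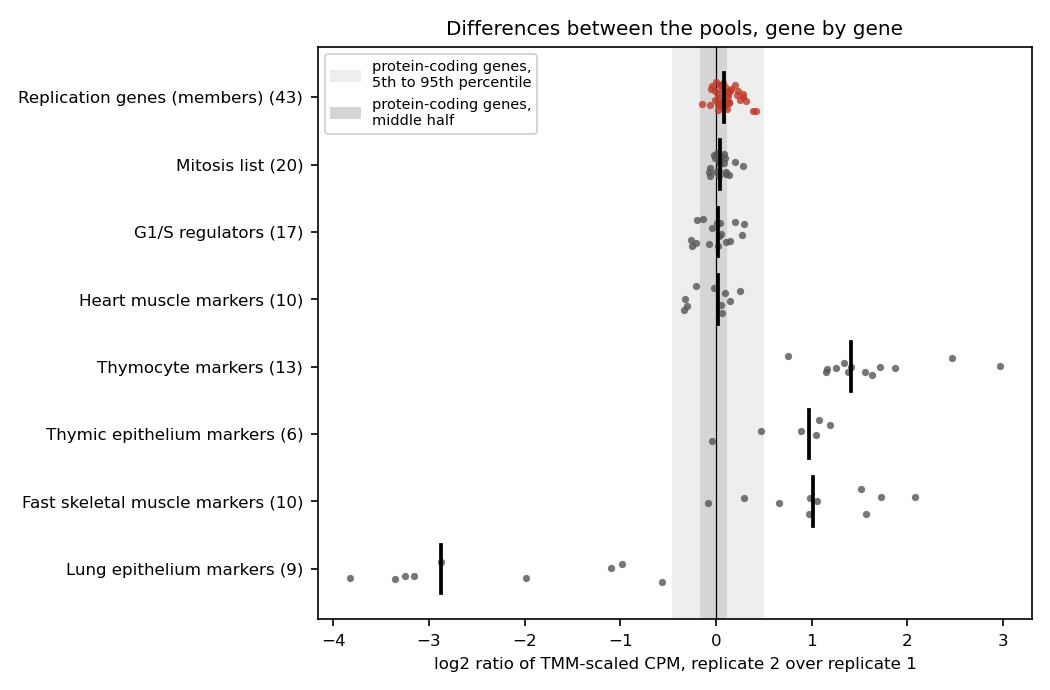
Log2 ratio of TMM-scaled CPM, replicate 2 over replicate 1 (x axis), for each gene averaging 1 TPM or more in the replication set (red) and in other lists (grey); vertical bars are medians and the number of genes is in brackets. Light shading runs from the 5th to the 95th percentile of expressed protein-coding genes (-0.45 to 0.49) and dark shading between their quartiles (-0.15 to 0.10); the replication genes lie between -0.15 and 0.42, while the medians of thymocyte and lung markers lie to the right and left of the shading.

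Other genes of the pathway had a lower median level. In 8 further lists of replication, repair and nucleotide genes, 70 of 71 genes were at 1 TPM or more in each library (median 20.3 TPM); Mcmdc2 was the exception. Their median log2 ratio was 0.04, 41 of 70 were higher in replicate 2, and 0 were over 1.5-fold apart. The difference from the 43 genes (median 0.09, 36 of 43 higher) was not tested. Licensing helpers and kinases had a median of 20.1 TPM and were led by cyclin A2, Ccna2 (148 TPM ± 9.62), its kinase Cdk2 (69.9 ± 1.87) and cyclin E2, Ccne2 (32.8 ± 1.57). Genes of fork protection and other clamp loaders (median 17.1 TPM) were led by Tipin (73.2 ± 3.55), Chtf8 (51.7 ± 0.170) and Timeless (24.2 ± 0.403). The list of fragment processing and chromatin assembly (median 35.8 TPM) was led by the PCNA-binding protein Pclaf (77.4 ± 8.39) and the RNase H2 subunits Rnaseh2a (66.2 ± 0.792) and Rnaseh2c (59.0 ± 2.14).

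Further nucleotide genes had a median of 42.1 TPM and were led by thymidylate kinase, Dtymk (133 ± 6.10), the dCTP pyrophosphatase Dctpp1 (110.3 ± 11.1) and the dUTPase Dut (104 ± 20.8). Other polymerases and ligases had a median of 8.06 TPM and a median log2 ratio of -0.06, with 4 of 10 genes higher in replicate 2. The highest was Polb at 39.5 ± 0.757, followed by Polg with 17.4 TPM in replicate 2 and 24.7 in replicate 1. Of the other topoisomerases Top1 (37.9 ± 1.16) and Top3b (36.4 ± 1.27) were highest. The mitosis list stood a little above the replication genes, at a median of 68.0 TPM, led by Cdk1 (290.0 ± 15.4), survivin, Birc5 (192 ± 2.46), and cyclin B1, Ccnb1 (159.6 ± 4.56). G1/S regulators had a median of 17.4 TPM and were led by Cdk4 (689.7 ± 6.32), Ccnd3 (339 ± 17.1) and Ccnd2 (87.5 ± 0.240). The median log2 ratios between pools were 0.04 for mitosis genes and 0.02 for G1/S regulators. All values after a ± sign are SDs over the 2 libraries.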

How the data were processed

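Members and lists were chosen with earlier results of these data known. Libraries of 2 heart pools were made from 10 ng total RNA (over 200 nt) plus ERCC spike-ins, per the labels. Per the notes deposited with the files, build mm10 and annotation M4 were used; the sources used here do not name the aligner, quantification tool or strand setting. The deposited tables hold estimated counts that are not normalized, TPM and FPKM (FPKM was not used), computed by the authors. They also give the percent of a gene's TPM on each transcript, and TPM interval bounds, treated as a score, as deposited by the authors. Names, classes and coordinates came from GENCODE M21 (GRCm38), promoters from RefSeq (GRCm38.p6).

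Estimated counts were rounded and scaled with edgeR 4.0.16 (TMM), with 0.5 added to each count, over 42462 annotated genes, tested first on simulated data. TPM pairs used 0.1 as pseudocount. Genes with fractional counts (15 of 43, tolerance 0.005) share reads with other loci; strand was not used, so antisense reads cannot be told apart. Depth was 40360242 counts in replicate 2 and 37160624 in replicate 1, of which spike-ins held 3.41% and 1.62%. Intervals cover counting and assignment error only. Named genes are all members, fixed pairs, and, of each other replication, nucleotide, mitosis and G1/S list, the 3 highest and those under 1 TPM. Of the cell type markers only Lck, Cd3g, Cd4 and Dntt are named. These markers, Pole2 and genes named for motifs were chosen after their values were seen. Alternatives were posterior mean TPM, rescaled TPM, other thresholds, scalings, pseudocounts and promoter windows, and leaving out each replicate.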

Additional observations from a re-analysis of the deposited data

How the results depend on the processing

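Rescaling TPM to annotated mouse genes moved the median of the 43 genes to 56.3 TPM and their share to 0.263%, and TPM on protein-coding transcripts, chosen after seeing the data, gave a median of 36.2 TPM. Scaling by summed spike-in counts reversed the median log2 ratio between pools to -0.99. It put all 43 genes over 1.5-fold apart, against 93.4% of all expressed genes, and moved the median of those genes to -1.09. A change of scaling shifts every log2 ratio by the same amount, so the 0.10 by which the members lay above that median could not change. The cause of the spike-in difference was not tested. Leaving out each replicate gave medians of 52.0 to 54.8 TPM and shares of 0.242% to 0.256%; a ratio between pools then has no value. Without length correction Cdc6 over Cdt1 (0.0018), Tyms over Tk1 (0.057) and Fen1 over Lig1 (0.35) changed sign on the log2 scale, and Lig1 over Lig3 (0.13) and Rrm1 over Rrm2 (-0.11) no longer passed the rule; counts over the coding transcript, also chosen after seeing the data, gave 0.75 for Fen1 over Lig1 and -1.08 for Tyms over Tk1. Without replicate 2, Tyms over Tk1 was -0.22 and passed the rule. All 43 genes stayed at or above 1 TPM by posterior mean and rescaled TPM and without either replicate. At 5 TPM in both libraries 42 passed, Orc1 being the exception, and no background share is given for that threshold. In the shorter promoter window the E2F-type count stayed at 13, while TATAAA went to 0 of 35 genes, against 2 in the full window. Of expressed protein-coding genes, 5.55% held TATAAA in the shorter window and 9.14% in the full one. No paired analysis was possible because there is 1 group. The number of libraries limits every difference between pools.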

Other observations

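Several replication genes start back to back with another coding gene. A coding gene on the opposite strand began within 1000 bases upstream of 7 of the 43 genes (16.3%), against 9.86% of 12987 expressed protein-coding genes. The levels within the 7 pairs differed by 1.22-fold to 14.6-fold. Mcm4 (55.1 TPM) starts 466 bases from Prkdc, the DNA-dependent protein kinase gene, which had 3.78 TPM ± 0.134 (SD, n = 2). Orc1 (3.85 TPM) starts 87 bases from the splicing factor gene Prpf38a, which had 46.3 ± 3.65. Orc3 (53.9 TPM) and the mitochondrial tRNA synthetase gene Rars2 (44.2 ± 1.61) start 13 bases apart. Gins1 (21.2 TPM) lay under Abhd12 (34.6) and Pole (14.2) under Pxmp2 (21.9 ± 1.34). Rpa1 (77.7 TPM) lay above Smyd4 (12.3) and Rpa3 (75.4) above Umad1 (25.2). These neighbours were chosen by position, after the members' values were seen.

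Pcna has processed copies that can take its reads. Pcna-ps2 on chromosome 19 had 6.67 TPM in replicate 2 and 0.85 in replicate 1, from 229 and 26.4 estimated counts, and Pcna-ps1 on the X chromosome had 0 counts in both libraries. With the counts of Pcna and Pcna-ps2 added, 6939 in replicate 2 and 4648 in replicate 1, the log2 ratio was 0.46, against 0.42 for Pcna alone. Whether the reads on Pcna-ps2 came from Pcna was not tested.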
